A study of Mus musculus with 12 samples.

Results

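The nuclear genes for subunits of the mitochondrial respiratory chain were described in RNA-seq of mouse skin. All rows of the count table were taken whose Entrez Gene ID maps to a protein-coding nuclear gene with a symbol starting Ndufa, Ndufb, Ndufc, Ndufs, Ndufv, Uqcr, Cox4 to Cox8 or Atp5, or to Sdha, Sdhb, Sdhc or Sdhd, without the Ndufaf assembly factors. This gave 85 genes of 23469 gene IDs. By complex they are 36 genes of complex I, 4 of complex II, 8 of complex III, 20 of complex IV (Ndufa4 and its paralog Ndufa4l2 placed there) and 17 of complex V. The genes Ndufb1, Ndufb4b and Ndufb4c also meet the rule by name and were not analysed here. The rule uses no measured value.

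The study compared BALB/C wild-type mice with a second BALB/C line, each under 2 treatments labelled ASP, an extract of the allergenic mould Aspergillus fumigatus, and SAL. Every mouse was shaved on day 0. A patch was on the back from day 1 to day 4, and the patched skin was taken on day 5. The wild-type SAL, wild-type ASP, labelled-null SAL and labelled-null ASP groups hold 3 libraries each. ASP patches carried 200 ug of the extract, and SAL is a treatment name that the labels leave unexpanded. The second line is a Serpinb3a null in the design text, SCCA2KO in the titles and Serpinb3a-transgenic in the genotype field. Serpinb3a itself, a gene with close paralogs, stood at 1.74 to 8.61 CPM (counts divided by library size, scaled) in the libraries of that line and at 0.264 to 1.40 in wild type. Within that line it stood at 6.39 to 8.61 CPM under SAL and at 1.74 to 2.31 under ASP. The count is thus higher in the line that the design text calls a null. Whether these reads come from Serpinb3a or from its paralogs was not tested, so the count does not settle the genotype. The line is called labelled-null here, and every direction between genotypes follows that label. Nothing in the labels says that the libraries of a group are separate animals, so p-values speak only for the spread between these libraries. No label used here gives the age of the mice or how the line was made.

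The respiratory chain sits in the inner mitochondrial membrane. Complex I oxidises NADH and complex II oxidises succinate, both pass electrons through ubiquinone to complex III, and cytochrome c carries them to complex IV, which reduces oxygen. Complex V, the ATP synthase, makes ATP from the proton gradient that complexes I, III and IV build. Most subunits are encoded in the nucleus, and the mitochondrial genome encodes the remaining ones, whose genes were not analysed here. Skeletal muscle and brown fat are rich in these complexes, and back skin samples can include the thin cutaneous muscle. Several complex IV subunits come as a broadly expressed isoform and a form found in heart and skeletal muscle, lung or testis.

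Nuclear transcription factors such as NRF1, GABP and the estrogen-related receptors (ERR) bind promoters of many of these genes. The 250 bases before the transcription start are printed for 4 members with different motif content, from RefSeq (GRCm38.p6), in the direction of the gene, all of them minus-strand genes. Capitals mark matches to the NRF1 motif (GCGCA and GCGC with any 1 base between), the GABP motif CCGGAAG (read as CTTCCGG on the other strand) and the E-box CAGCTG.
Cox6a1 (chr5:115348959-115349208, broad subunit of complex IV): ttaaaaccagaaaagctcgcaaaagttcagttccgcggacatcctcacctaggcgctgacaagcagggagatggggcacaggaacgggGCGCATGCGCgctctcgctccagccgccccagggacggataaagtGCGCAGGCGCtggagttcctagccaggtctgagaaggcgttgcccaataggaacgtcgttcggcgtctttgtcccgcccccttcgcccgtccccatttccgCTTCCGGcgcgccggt
Sdhd (chr9:50603850-50604099, membrane anchor of complex II): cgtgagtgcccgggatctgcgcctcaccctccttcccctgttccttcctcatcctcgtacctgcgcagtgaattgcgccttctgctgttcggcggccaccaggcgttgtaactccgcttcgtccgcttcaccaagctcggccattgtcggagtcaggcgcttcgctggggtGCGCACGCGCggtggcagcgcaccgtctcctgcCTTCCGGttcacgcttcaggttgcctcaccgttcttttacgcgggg
Uqcrh (chr4:116075071-116075320, hinge subunit of complex III): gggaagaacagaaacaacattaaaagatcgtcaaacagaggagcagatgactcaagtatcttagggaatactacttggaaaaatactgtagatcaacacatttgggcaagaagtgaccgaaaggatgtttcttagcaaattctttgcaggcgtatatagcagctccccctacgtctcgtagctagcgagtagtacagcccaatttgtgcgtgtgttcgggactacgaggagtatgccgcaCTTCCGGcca
Cox8b (chr7:140900447-140900696, muscle isoform of complex IV): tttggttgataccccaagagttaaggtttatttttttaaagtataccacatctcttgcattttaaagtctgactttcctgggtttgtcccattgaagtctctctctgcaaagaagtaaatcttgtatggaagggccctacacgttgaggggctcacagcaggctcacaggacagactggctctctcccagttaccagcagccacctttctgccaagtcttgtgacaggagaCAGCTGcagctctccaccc
Cox6a1 carries NRF1 and GABP matches, Sdhd carries both as well, Uqcrh carries a GABP match and Cox8b an E-box. Over windows from 250 bases before to 50 after the start, 69 of the 85 members had a promoter in the RefSeq table. On either strand, the NRF1 motif was in 17 of these 69 members (24.6%), against 5.19% of all 27025 genes with a promoter there. The members are all protein-coding, and among the 17492 protein-coding genes the share was 7.17%. GABP was also in 17 (24.6%, against 9.93% of all genes and 12.9% of protein-coding genes). In the same order, the ERR half-site AAGGTCA was in 8 (11.6%, 5.38%, 4.73%) and the YY1 motif AAGATGGC in 10 (14.5%, 3.19%, 3.57%). The E-box was in 6 (8.70%, 18.3%, 17.4%), which were Atp5b, Cox8b, Ndufa8, Ndufb10, Ndufs5 and Ndufv2. NRF1 and ERR motifs were both found in Sdhd, Atp5g3, Atp5k, Ndufb4 and Ndufs5. A motif match describes these letters only and is not a measured binding site.

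Total counts ran from 6705396 to 12933436 per library. Levels are given as CPM scaled by the trimmed mean of M-values (TMM). Keratinocyte markers, which define the labelled tissue, summed to 4179 to 13810 CPM over 8 genes. Skeletal muscle markers summed to 27250 to 121600 CPM over 21 genes, none of them at 0 throughout, and brown fat markers to 24.4 to 49.0 CPM over 5. In such bulk samples, fewer cells of a type and less RNA per cell cannot be told apart. Genes named Mup held 8.43% to 39.0% of a library. The exons of 31 of the 85 members overlap another gene (28 of them an antisense gene), and the strand setting of the counting is not given in the sources used here, so reads of overlapping genes may be mixed. In 13 members over 10% of 50-base stretches also occur in other genes, among them Uqcrb, Ndufa12, Ndufb9, Cox7a2l and Cox5b, and these levels are less certain.

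Of the 85 members, 82 passed the filter on low counts and were tested. Cox7b2 and Cox8c, testis isoforms of complex IV, had 0 counts in all 12 libraries. Cox6b2, another testis isoform, had 36 counts over all libraries and was not tested alone. Compared per kilobase of transcript, Atp5b, the catalytic beta subunit of ATP synthase, was the most abundant member, with a mean of 647 CPM per kb. Atp5j, the coupling factor of the stalk, followed in complex V with 146. Cox7c, a small complex IV subunit, stood at 168 CPM per kb and Ndufa4 at 150.3. In complex I, Ndufb9 stood at 157 and Ndufc1 at 41.3, both accessory subunits of its membrane arm. In complex III, Uqcrh stood at 80.4 and Uqcr11 at 64.9. In complex II, the flavoprotein gene Sdha stood at 30.3 CPM per kb and the anchor Sdhd at 25.1, with the iron-sulfur subunit Sdhb at 23.6 and the other anchor Sdhc at 11.7. Members of complex V, taken one by one, lay between 14.8 (Atp5j2) and 647 CPM per kb, so subunit transcripts of 1 complex were far from equal.

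Complex II, whose 4 subunits are all nuclear, can be given whole. Sdha stood at 82.5, 63.1 and 134 CPM in wild-type SAL, 88.6, 86.9 and 83.5 in wild-type ASP, 66.9, 100.1 and 68.3 in labelled-null SAL and 82.8, 74.5 and 123 in labelled-null ASP. Sdhb stood at 22.0, 13.1 and 31.6 CPM in wild-type SAL, 12.8, 73.1 and 21.0 in wild-type ASP, 23.0, 18.1 and 23.7 in labelled-null SAL and 22.9, 24.8 and 37.4 in labelled-null ASP. The flavoprotein gene thus kept within its range in wild-type ASP replicate 2, where the iron-sulfur gene reached its highest value. Sdhc stood at 39.4, 16.4 and 50.8 CPM in wild-type SAL, 28.1, 54.7 and 44.8 in wild-type ASP, 39.0, 45.9 and 33.4 in labelled-null SAL and 22.5, 27.2 and 41.3 in labelled-null ASP. Sdhd stood at 20.7, 11.5 and 44.6 CPM in wild-type SAL, 22.3, 76.7 and 18.4 in wild-type ASP, 18.9, 34.0 and 24.0 in labelled-null SAL and 15.8, 35.9 and 47.7 in labelled-null ASP. Both anchors were lowest in wild-type SAL replicate 2 and highest in wild-type ASP replicate 2.

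The next members were among the most abundant of complexes I, IV and V. Ndufb9 stood at 126, 80.4 and 119 CPM in wild-type SAL, 85.1, 199.8 and 90.2 in wild-type ASP, 114, 124 and 87.9 in labelled-null SAL and 85.2, 93.1 and 117 in labelled-null ASP. Cox7c stood at 57.6, 88.7 and 105 CPM in wild-type SAL, 47.0, 177 and 73.7 in wild-type ASP, 119.7, 109 and 81.5 in labelled-null SAL and 44.6, 69.1 and 116 in labelled-null ASP. Atp5j stood at 106, 121 and 117 CPM in wild-type SAL, 78.1, 149 and 119 in wild-type ASP, 73.0, 101 and 98.0 in labelled-null SAL and 91.7, 77.5 and 173 in labelled-null ASP, with its highest value in labelled-null ASP replicate 3. For all 3 genes every treatment group overlapped the other within each genotype.

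**Figure D1:**
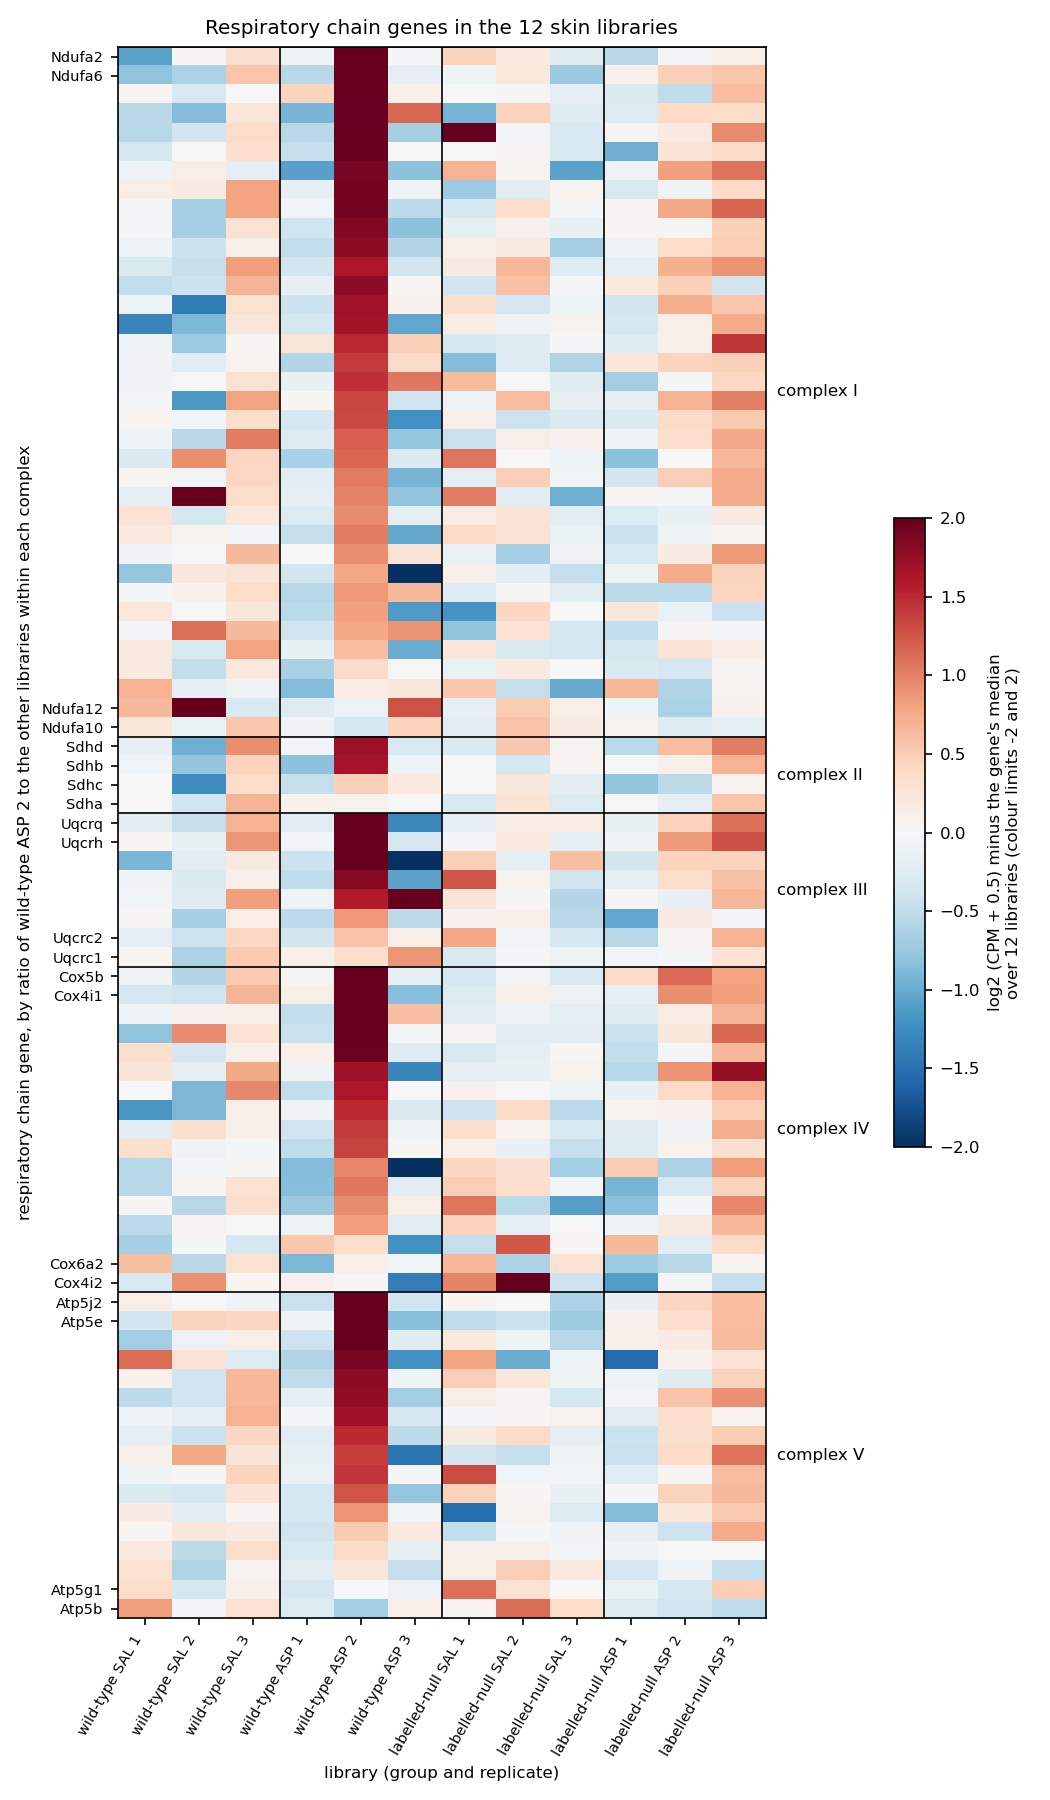
Each row is 1 of the 82 tested respiratory chain genes, each column 1 library, and colour is log2 (CPM + 0.5) minus the gene's median over the 12 libraries, with colours limited at -2 and 2. Rows are ordered within each complex by the ratio of wild-type ASP replicate 2 to the median of the other libraries, and the 2 highest and 2 lowest genes of each complex are labelled. Wild-type ASP replicate 2 is red in most rows of every complex and is the highest library for 62 of the 82 genes, while Atp5b and Ndufa10 are lowest there.

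The largest pattern among the members was a single library. Wild-type ASP replicate 2 was the highest of the 12 libraries for 62 of 82 tested members, against 13.8% of all 15341 genes tested. It held at least 2 times the median of the other 11 libraries for 56 members, against 12.8% of all genes. The median ratio over the members was 2.80 and over all genes 1.01. Summed over members, this library held 6693 CPM and the other 11 held 3097 to 5372. The sum of complex I was 1650 CPM there against 570.4 to 953.6 elsewhere, and the sum of complex IV 1330 against 378.9 to 751.1. Complex III summed to 646 CPM against 178 to 363, and complex II to 291 against 104 to 261. Complex V did not stand out as a sum, at 2776 CPM inside the range of 1791 to 3592 elsewhere, with Atp5b included, which alone stood at 698 CPM there and at up to 2438 elsewhere.

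By complex, the median ratio of wild-type ASP replicate 2 to the other libraries was 2.74 for 36 complex I genes, 2.30 for the 4 complex II genes, 3.47 for 8 complex III genes, 2.79 for 17 complex IV genes and 3.00 for 17 complex V genes. The largest ratio was that of Uqcrq, a small complex III subunit, at 62.3 CPM in wild-type ASP replicate 2 against 3.57 to 20.8 in the other 11 libraries (median 8.46), 7.36 times that median. Ndufa2, an accessory subunit of the matrix arm of complex I, stood at 32.5 CPM in wild-type ASP replicate 2 against 1.99 to 6.71 in the other 11 libraries (median 4.70), 6.91 times that median. Its 11 other libraries thus all lay far below that library. Uqcrh stood at 153 CPM in wild-type ASP replicate 2 against 21.5 to 67.6 in the other 11 libraries (median 26.4), 5.80 times that median. Cox5b, a nuclear subunit of complex IV, stood at 53.8 CPM in wild-type ASP replicate 2 against 6.37 to 22.1 in the other 11 libraries (median 9.45), 5.69 times that median. Atp5j2, a membrane subunit of complex V, stood at 56.1 CPM in wild-type ASP replicate 2 against 6.55 to 15.9 in the other 11 libraries (median 10.2), 5.51 times that median. None of these ranges reached the value of that library.

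Some members did not follow. Atp5b was lowest in wild-type ASP replicate 2 (ratio 0.606), as was Ndufa10, an accessory subunit of complex I (ratio 0.742). Ndufa12, which sits beside the NADH-oxidising module, had a ratio of 0.864. Ratios near 1 were found for Atp5g1, a c-ring gene (1.00), for Sdha (1.05) and for Cox4i2, the lung isoform of complex IV (1.11). No member stood at 0.5 times the other libraries or less, as 8.20% of all genes did.

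The elevation went with transcript length. Members under 700 bases stood 1.79 log2 units above their own 12-library median there (34 genes), members of 700 to 1000 bases 1.26 (19), members of 1000 to 2000 bases 1.02 (21) and members of 2000 to 4000 bases 0.38 (8). Among all genes tested the same bins stood at 0.94, 0.80, 0.32 and 0.00, and genes of 4000 bases or more at -0.19. In each bin the members were thus higher than genes of like length as a whole. Cytosolic ribosomal protein genes summed to 27000 CPM in wild-type ASP replicate 2 against 8407 to 15270 in the others, with a median ratio of 3.23 over 82 genes. Mitochondrial ribosomal protein genes summed to 1513 CPM against 874.7 to 1161. The median ratio was 0.93 for 13 tricarboxylic acid (TCA) cycle enzymes and 1.19 for 12 fatty acid oxidation genes. The sum of skeletal muscle markers was lowest in that library (27250 CPM against 33480 to 121600). The nuclear RNA Malat1 was lowest there as well (21470 CPM against 28040 to 103300). Of the 21 muscle markers, 6 stood at least 2 times the median of the other libraries there (28.6%, against 12.8% of all genes). Another 6 stood at most 0.5 times that median (28.6%, against 8.20% of all genes), and the median ratio was 0.658. The part of transcript length, RNA quality or tissue makeup in the member values was not tested.

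**Figure D2:**
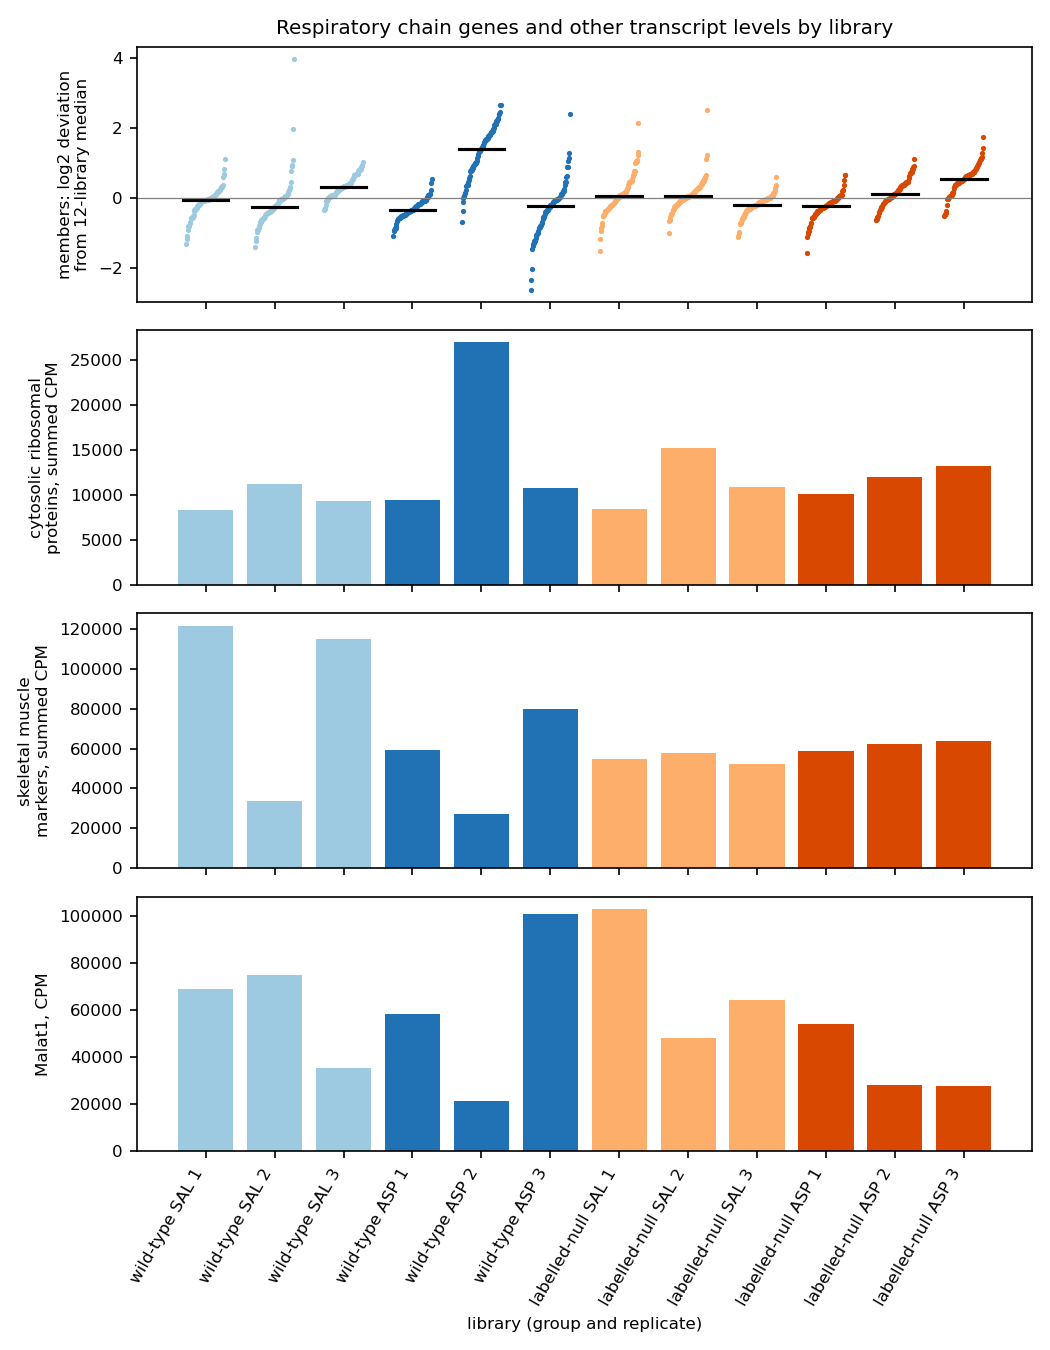
The top panel shows the log2 deviation of each tested member from its 12-library median (points) and the median over members (lines) in every library, and the bars below show the summed CPM of cytosolic ribosomal protein genes and of skeletal muscle markers and the CPM of Malat1. Wild-type ASP replicate 2 has the highest member median (1.42) with the highest ribosomal sum, the lowest muscle marker sum and the lowest Malat1 level.

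Among the other libraries the median of the members differed as well, to a smaller degree. The median deviation over members was 0.55 in labelled-null ASP replicate 3, 0.31 in wild-type SAL replicate 3 and 0.12 in labelled-null ASP replicate 2. It was -0.34 in wild-type ASP replicate 1 and between -0.24 and 0.05 in the remaining 7 libraries. The 4 libraries with the highest member medians, in 3 groups, were also the 4 with the lowest Malat1, at 21470 to 35460 CPM against 48240 or more in the rest. As a percentage of unscaled library counts the order of Malat1 differed, and labelled-null SAL replicate 2 (3.12%) stood below wild-type SAL replicate 3 (4.28%), so the 4 did not coincide on that scale. They did not share a level of muscle markers, at 27250 CPM in wild-type ASP replicate 2 and 114700 CPM in wild-type SAL replicate 3. Wild-type ASP replicate 3 was the lowest library for 23 members, more than any other, and wild-type SAL replicate 2 for 15. Wild-type ASP thus held both the library most often highest and the library most often lowest.

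Members differed widely in how far single libraries spread. By the SD of log2 CPM over 12 libraries, Atp5a1, the alpha subunit of ATP synthase, was steadiest (0.259), at 278, 169 and 311 CPM in wild-type SAL, 196, 315 and 215 in wild-type ASP, 264, 259 and 234 in labelled-null SAL and 229, 242 and 243 in labelled-null ASP. Ndufab1, the mitochondrial acyl carrier protein, followed (0.310), then Ndufa10 (0.326) and Sdha (0.330). The widest were Ndufa8 (1.29), Uqcr11 (1.11) and Cox4i2 (1.03). Ndufa8, an accessory subunit of complex I, stood at 5.08, 100.4 and 7.75 CPM in wild-type SAL, 5.15, 12.2 and 3.17 in wild-type ASP, 12.5, 5.03 and 2.75 in labelled-null SAL and 6.06, 5.68 and 10.1 in labelled-null ASP. The high value is 1 library, wild-type SAL replicate 2, and the exons of the gene (chromosome 2, 36036324 to 36049338) overlap no exon of another gene. Uqcr11, a small subunit of complex III, stood at 12.1, 19.8 and 26.1 CPM in wild-type SAL, 17.0, 99.1 and 3.30 in wild-type ASP, 32.6, 20.3 and 35.1 in labelled-null SAL and 17.8, 31.5 and 31.6 in labelled-null ASP. It was lowest in wild-type ASP replicate 3 and highest in replicate 2 of the same group. Other members with 1 or 2 high libraries were Ndufa12 (46.2 CPM in wild-type SAL replicate 2) and Ndufc2, a complex I subunit (51.6 CPM in labelled-null SAL replicate 1 and 50.6 in wild-type ASP replicate 2, with 21.9 or less elsewhere).

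For the response of wild-type skin to the extract, no member passed the test (edgeR quasi-likelihood test, adjusted p at least 0.999), nor did any of the 15341 genes (0.0%). DESeq2 called 2 genes and 0 members. With all libraries 64 of 82 members had a positive log2 fold change, with a median of 0.46, against 51.5% positive and a median of 0.02 for all genes. That median was 0.06 under limma-voom with quality weights and 0.07 with the muscle marker sum as a covariate, all libraries kept. Once wild-type ASP replicate 2 was left out, 13 of the 82 were positive (47.7% of all genes) and the median was -0.35, so the sign changed on leaving out that library. Without wild-type ASP replicate 1 or replicate 3 the median was 0.74. At unadjusted p under 0.05 there were 10 higher and 1 lower with all libraries (2.87% and 1.87% of all genes) and 1 higher and 5 lower without it (3.02% and 2.49%). By complex, the medians with and without it were 0.49 and -0.35 for I, 0.43 and -0.23 for II, 0.86 and -0.47 for III, 0.43 and -0.33 for IV, and 0.43 and -0.39 for V. Skeletal muscle markers had a median of -0.39 with it and -0.37 without it, and their part was not tested.

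Uqcrb, which helps bind ubiquinone in complex III, stood at 12.6, 11 and 23.8 CPM in wild-type SAL and 12.3, 40.3 and 71.2 in wild-type ASP, a log2 fold change of 1.38 (SE 0.51, adjusted p = 0.999). The gene lies on chromosome 13 from 66900576 to 66905350 (mm10) and overlaps an antisense gene. Here replicate 3, not replicate 2, was the highest, the groups overlapped, and the value was 1.39 without replicate 2 but 0.73 without replicate 3. Ndufb5, an accessory subunit of complex I, stood at 13.6, 10.9 and 23.9 CPM in SAL and 10.4, 81.2 and 45.4 in ASP, a log2 fold change of 1.5 (SE 0.56, adjusted p = 0.999). Replicate 1 of ASP was lower than any SAL library, and the value without replicate 2 was 0.78. Ndufa4, a complex IV subunit, stood at 55.9, 62.8 and 63.3 CPM in SAL and 42.1, 275 and 90.6 in ASP, a log2 fold change of 1.16 (SE 0.47, adjusted p = 0.999) that was 0.13 without replicate 2. Cox7a2l, a factor that joins complexes III and IV into supercomplexes, stood at 7.61, 9.25 and 18.8 CPM in SAL and 16.8, 50.1 and 14.4 in ASP, a log2 fold change of 1.19 (SE 0.48, adjusted p = 0.999), and 0.39 without replicate 2. Ndufa2 moved from 1.68 to 0.07 on leaving replicate 2 out. In the other direction, Ndufa8 had -2.45 (SE 0.89, adjusted p = 0.999), set by the single high SAL library. Ndufa12 stood at -0.62, Cox6a2, the muscle isoform of a complex IV subunit, at -0.41 and Ndufs7, an iron-sulfur subunit of complex I, at -0.33. Leaving out 1 library at a time moved these between -1.31 and 0.23, between -0.68 and -0.16 and between -0.82 and 0.01. Only Ndufb2 and Ndufb8, accessory subunits of complex I, lay above SAL in all 3 ASP libraries, and none lay below, where 3.18% and 3.60% of all genes did so. Ndufb8 stood at 7.98, 4.94 and 8.73 CPM in SAL and 10.2, 25.2 and 12 in ASP. Ndufb2 stood at 2.81, 2.06 and 2.66 CPM in SAL and 3.84, 13.4 and 2.91 in ASP.

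**Figure D3:**
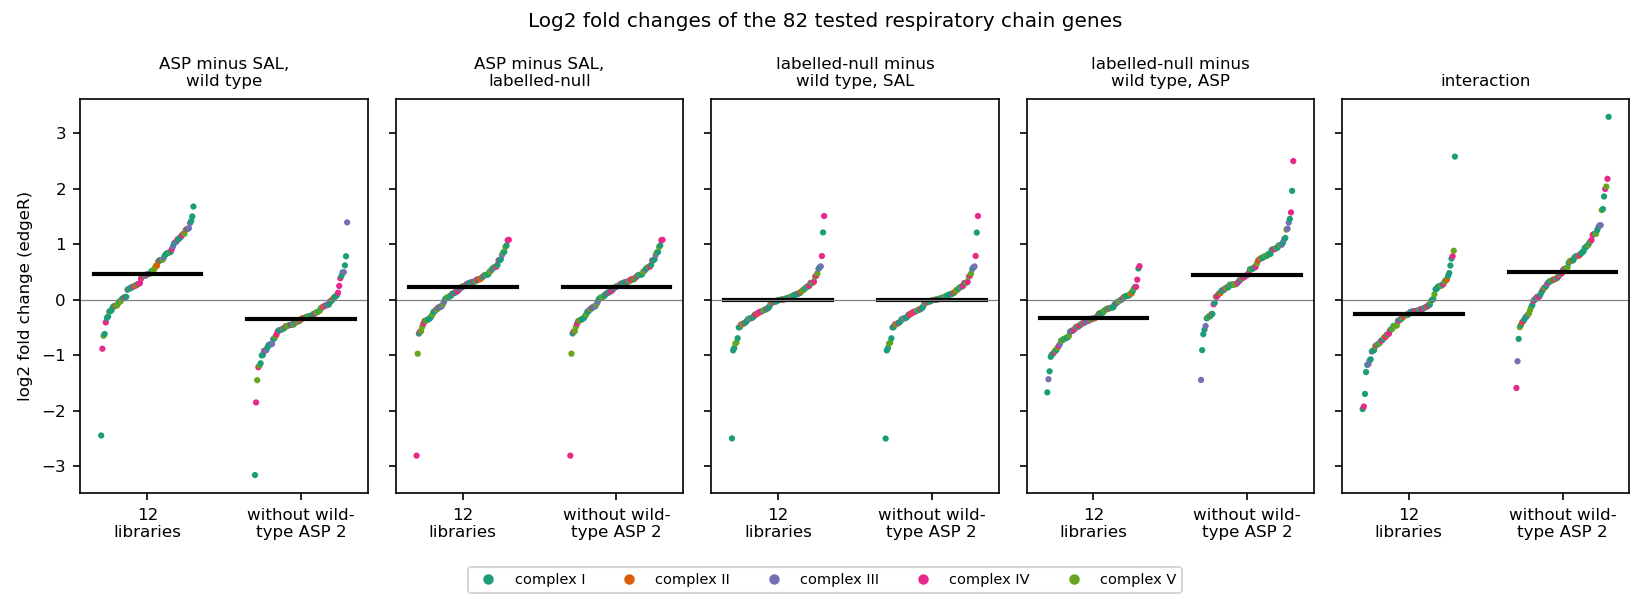
Each panel is 1 comparison and each point the log2 fold change of 1 of the 82 tested respiratory chain genes, coloured by complex, with all 12 libraries (left) and without wild-type ASP replicate 2 (right), and the bar is the median. In wild type the median moves from 0.46 to -0.35, in the comparison of genotypes under ASP from -0.34 to 0.45, and in the interaction from -0.26 to 0.50, while the panels whose fold changes do not use that library stay at 0.23 and at -0.01.

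In labelled-null skin, no member passed the test for ASP against SAL either (adjusted p at least 0.989, 0.0% of all genes called). Wild-type ASP replicate 2 does not enter these fold changes, but it enters their SEs through the shared estimate of spread. The log2 fold change was positive for 57 of 82 members, with a median of 0.23, against 48.8% of all genes and a median of -0.01. Complex I had 27 of 36 positive (median 0.22), complex IV 13 of 17 (0.29) and complex II 3 of 4 (0.31), while complex III had 4 of 8 (0.09) and complex V 10 of 17 (0.06). The median was 0.01 without labelled-null ASP replicate 3, 0.10 without labelled-null SAL replicate 3 and 0.35 without labelled-null ASP replicate 1. At unadjusted p under 0.05 there were 1 higher member and 2 lower (1.54% and 2.97% of all genes), and DESeq2 called 2 genes and 0 members. In the fit without wild-type ASP replicate 2 the counts were 5 higher and 2 lower (1.75% and 3.63%), with 57 members positive (48.9% of all genes) and 0 called. Cytosolic ribosomal protein genes stood higher as well (63 of 82 positive, median 0.25), adipocyte markers had 2 of 11 positive (median -0.52, 4 lower at unadjusted p under 0.05), mitochondrial ribosomal protein genes had 38 of 78 positive (0.00), skeletal muscle markers 14 of 21 (0.18), and Malat1 stood at 54210, 28140 and 28040 CPM under ASP against 103300, 48240 and 64540 under SAL. Their part in the member values was not tested.

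Ndufs6, a zinc-binding accessory subunit of complex I, stood at 6.87, 10.8 and 8.35 CPM in labelled-null SAL and 15.3, 17.8 and 18.2 in labelled-null ASP, a log2 fold change of 0.98 (SE 0.43, adjusted p = 0.989). The lowest ASP library was above the highest SAL library. Ndufs6, at 73319876 to 73328482 on chromosome 13, overlaps an antisense gene as well. Cox5b was likewise apart, at 7.67, 9.45 and 7.78 against 12.9, 22.1 and 17.4 CPM (log2 fold change 1.07, SE 0.57, adjusted p = 0.989). So was Atp5e, the epsilon subunit of the ATP synthase stalk, at 9.27, 9.81 and 7.97 against 14.2, 17.2 and 20.8 CPM (log2 fold change 0.95, SE 0.59, adjusted p = 0.989). Without wild-type ASP replicate 2 the SE was 0.38 for Cox5b and 0.37 for Atp5e, with the same fold changes and an adjusted p of 0.892 for both (edgeR). These 3 members lay higher with no overlap and 2 lay lower, where 5.85% and 4.63% of all genes did. Ndufb8 (0.86) and Cox6b1, a complex IV subunit on the intermembrane side (1.08), also had positive values, each highest in labelled-null ASP replicate 3 and at 0.15 and 0.44 without it.

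Other members stood lower under ASP in labelled-null skin, among them the abundant Atp5b. It stood at 1994, 1085 and 1372 CPM in wild-type SAL, 929, 698 and 1205 in wild-type ASP, 1152, 2438 and 1447 in labelled-null SAL and 929, 846 and 788 in labelled-null ASP. All 3 labelled-null ASP libraries lay below all 3 labelled-null SAL libraries, a log2 fold change of -0.98 (SE 0.39, adjusted p = 0.989), and in wild type the groups overlapped at -0.65 (SE 0.38, adjusted p = 0.999). The first value was -0.61 without labelled-null SAL replicate 2, and the second -0.38 without wild-type SAL replicate 1. Atp5b lies on chromosome 10 from 128083307 to 128090388 (mm10), and its exons overlap no exon of another gene in the annotation used. Atp5d, the delta subunit of ATP synthase, was the other member lying lower with no overlap. It stood at 110.1, 143 and 116 CPM in labelled-null SAL and 79.6, 96.6 and 72.3 in labelled-null ASP (log2 fold change -0.57, SE 0.30, adjusted p = 0.989). Atp5d overlaps an antisense gene. In wild type Atp5d stood at 126, 66.8 and 106 CPM in SAL and 86.5, 118 and 73.4 in ASP, a log2 fold change of -0.10. Atp5a1, the partner of Atp5b in the same hexamer, had log2 fold changes of -0.09 in labelled-null and -0.06 in wild type. Atp5g1 (-0.49) and Cox6a2 (-0.58) also stood lower in labelled-null ASP, with overlap, and at -0.10 and -0.27 without labelled-null SAL replicate 1.

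**Figure D4:**
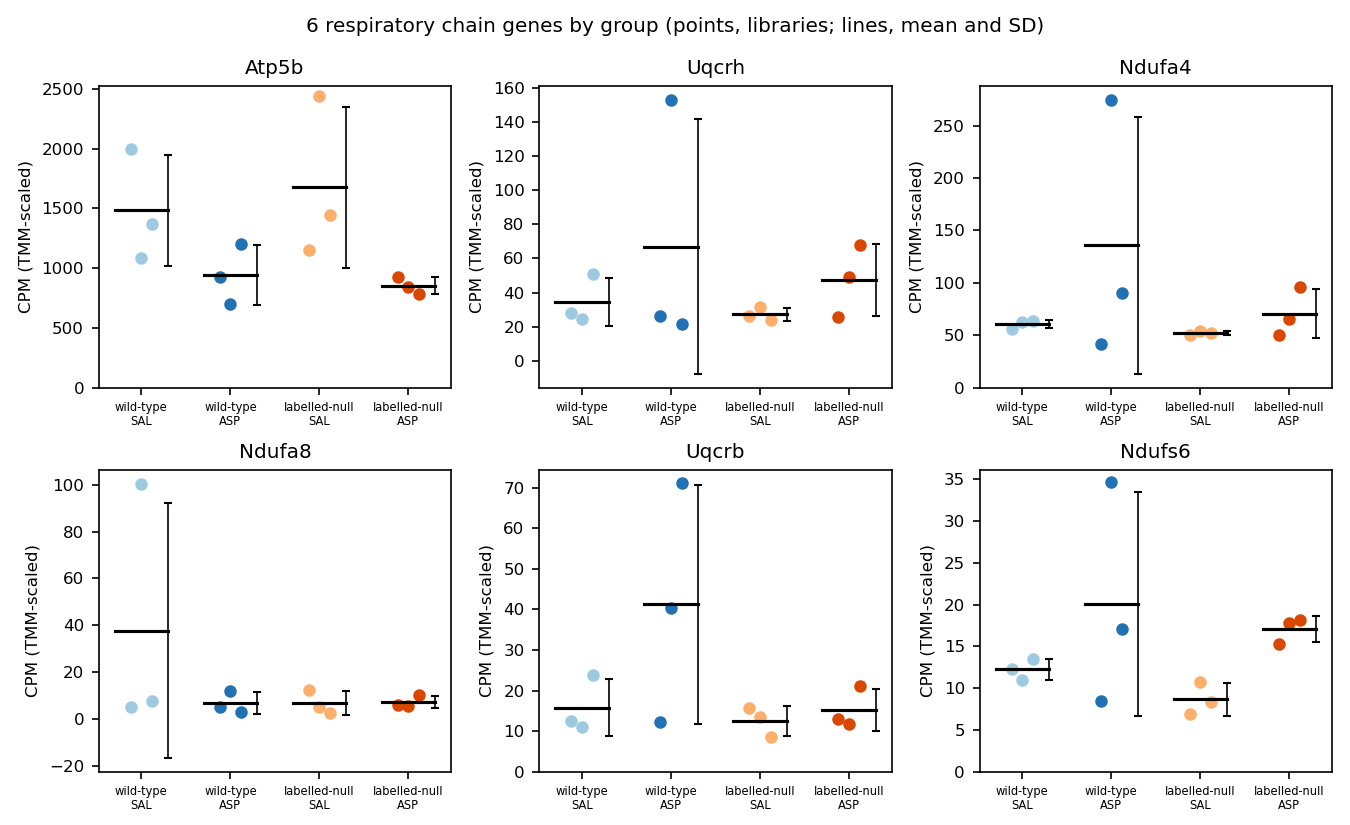
CPM of Atp5b, Uqcrh, Ndufa4, Ndufa8, Uqcrb and Ndufs6 in each library (points) with the group mean and SD (lines, n = 3). Uqcrh and Ndufa4 are set apart by wild-type ASP replicate 2 (153 and 275 CPM), Ndufa8 by wild-type SAL replicate 2 (100.4), Uqcrb by 2 wild-type ASP libraries, and Atp5b and Ndufs6 separate labelled-null ASP from labelled-null SAL in opposite directions.

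Labelled-null and wild type were compared under SAL for the genotype without the extract, and the median of the members was near 0. The log2 fold change was positive for 38 of 82, with a median of -0.01, against 51.3% and 0.01 for all genes. None passed the test (adjusted p = 1, 0.0% of all genes called), and at unadjusted p under 0.05 there were 0 higher and 2 lower (2.21% and 2.16%). DESeq2 called 6 genes and 0 members. Skeletal muscle markers stood lower in labelled-null (4 of 21 positive, median -0.52), and with their sum as a covariate the median of the members was -0.31. Without wild-type ASP replicate 2, 37 members were positive (51.2% of all genes), and 1 was higher and 3 lower at unadjusted p under 0.05 (2.58% and 2.56%). No complex had a median beyond -0.04, and leaving out 1 library at a time moved the median of all members between -0.19 (wild-type SAL replicate 2) and 0.16 (wild-type SAL replicate 3). Ndufa8 (-2.5) and Ndufa12 (-0.92) repeat the single high wild-type SAL library. Ndufa4l2, the hypoxia-inducible paralog of Ndufa4, stood at 19.7, 31.3 and 24.8 CPM in wild type and 22.7, 75.7 and 32.0 in labelled-null (log2 fold change 0.79, SE 0.47, adjusted p = 1), its highest value coming from replicate 2, without which it was 0.13. Ndufc2 (1.21) rests on labelled-null SAL replicate 1, and Cox4i2 (1.51) stands at 0.19 without replicate 2 of that group.

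With no overlap, 6 members lay lower in labelled-null SAL (Atp5e, Atp5j, Atp5md, Ndufa4, Ndufb6 and Ndufs6) and 0 lay higher, where 4.44% and 3.62% of all genes did. The gaps were narrow in Ndufa4, at 55.9, 62.8 and 63.3 CPM in wild type and 50.5, 54.6 and 51.8 in labelled-null. In Atp5e they were 10.2, 18.5 and 18.2 against 9.27, 9.81 and 7.97 CPM (log2 fold change -0.79, SE 0.59, adjusted p = 1). Ndufs6 stood at 12.3, 11 and 13.5 against 6.87, 10.8 and 8.35 CPM. Thus 2 of the 3 members that lay higher under ASP in labelled-null, Ndufs6 and Atp5e, also lay lower in labelled-null SAL than in wild-type SAL. These comparisons share the labelled-null SAL libraries.

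Under ASP, the genotypes were compared for the line in the presence of the extract, and wild-type ASP replicate 2 again set the sign. With it 16 of 82 members were positive (median -0.34, against 46.6% and -0.04 for all genes), and without it 69 were (median 0.45, against 51.6% positive of the genes then tested). None passed the test in either fit (adjusted p at least 0.999 and 0.577, 0.0% of all genes called). At unadjusted p under 0.05 there were 0 higher and 4 lower (0.906% and 2.16% of all genes), which became 13 higher and 1 lower without that library (3.05% and 4.98%). With all libraries DESeq2 called 5 genes and 0 members. Uqcrb stood lower in both fits, at -1.44 and -1.45, and at -0.78 without wild-type ASP replicate 3, with 12.3, 40.3 and 71.2 CPM in wild type and 12.9, 11.8 and 21.1 in labelled-null. Ndufv2, an iron-sulfur subunit of complex I, stood at 20.1, 62.5 and 47.3 against 13.6, 21.8 and 30.0 CPM (log2 fold change -0.99, SE 0.41, adjusted p = 0.999), and at -0.62 without the library. The lower values of Ndufa2 (-1.67), Ndufb2 (-1.29) and Ndufa4 (-0.95) shrank to -0.06, -0.30 and 0.09. The higher ones were Cox7a1, a muscle and heart isoform of complex IV (0.60), the complex I subunit Ndufa3 (0.56), Cox6b1 (0.36), Ndufc1 (0.23) and Atp5g1 (0.20). Leaving the library out moved the first 3 of these to 2.5, 1.46 and 1.57, and no member's groups were apart with all libraries, where 4.15% of genes were higher and 3.47% lower. Without the library 2 wild-type ASP libraries remain, and replicate 3 of them is the one most often lowest. The median was -0.61 without wild-type ASP replicate 1, -0.54 without replicate 3 and -0.53 without labelled-null ASP replicate 3.

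The interaction, the response in labelled-null minus the response in wild type, tests whether the extract acted differently in the genotypes. No member passed (adjusted p at least 0.998, 0.0% of all genes called), and 0 did in either direction at unadjusted p under 0.05 (1.48% and 2.33% of all genes). DESeq2 called 1 gene and 0 members. The median was -0.26 with 20 of 82 positive, against 46.7% of all genes, and 0.50 with 66 positive without wild-type ASP replicate 2, against 50.6%. At unadjusted p under 0.05 the fit without it had 7 higher and 0 lower (2.56% and 3.57%). Leaving out either other wild-type ASP library moved the median to -0.53 or -0.52. Ndufa2 (-1.97), Ndufc2 (-1.70), Ndufb2 (-1.31), Uqcrb (-1.10) and Ndufv2 (-1.08) were on the negative side. Of these Uqcrb and Ndufv2 changed least without that library, to -1.11 and -0.71, and Uqcrb was -0.44 without wild-type ASP replicate 3. On the positive side were Ndufa8 (2.58), Atp5md, a small membrane subunit of ATP synthase (0.88), Cox6b1 (0.78), Ndufa3 (0.74) and Ndufc1 (0.61). Leaving out the 1 library that lowered each most gave 0.04, 0.41, 0.15, 0.29 and 0.22 in that order. A difference between the genotypes in the response of the chain was therefore not shown for any member.

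Complex IV isoforms were compared as log2 ratios of CPM + 0.5 within a library. Such a ratio cancels a shift common to both genes only where both stand well above 0.5 CPM. Cox4i2 and Cox6b2 did not in most libraries. Of 12 tests over 6 pairs (two-sided exact permutation test, 6 libraries against 6, adjusted over the 12), none reached an adjusted p under 0.05. The ratio of Cox4i2 to the broad form Cox4i1 was lower under ASP, with a mean log2 ratio of -4.45 ± 0.75 against -2.76 ± 1.17 under SAL (SD, n = 6, exact p = 0.013, adjusted p = 0.104). The difference was -1.17 within wild type (exact p = 0.4) and -2.20 within labelled-null, where the groups did not overlap (exact p = 0.1, the smallest that 3 against 3 can give). Cox4i2 itself was low, with 0.544, 1.95 and 0.835 CPM in wild-type SAL, 0.873, 0.840 and 0 in wild-type ASP, 2.08, 6.94 and 0.475 in labelled-null SAL and 0.0961, 0.758 and 0.440 in labelled-null ASP. It had 146 counts in all, 58 of them in labelled-null SAL replicate 2. Cox4i1 stood at 10.6, 10.2 and 22.0 CPM in wild-type SAL, 14.9, 68.7 and 7.26 in wild-type ASP, 11.2, 14.7 and 12.5 in labelled-null SAL and 12.1, 26.4 and 24.3 in labelled-null ASP. Its high libraries are those with high member medians, and the ratio moves with both genes of the pair. In wild-type ASP replicate 2, Cox4i1 stood at 5.485 times the median of the other libraries and Cox4i2 at 1.109 times. The ratio was lowest there, at -5.69, so it still carries the shift of that library.

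The ratio of the muscle form Cox6a2 to Cox6a1 was also lower under ASP, at -0.99 ± 0.36 against -0.30 ± 0.63 (SD, n = 6, exact p = 0.0173, adjusted p = 0.104). The difference was -0.71 within wild type and -0.68 within labelled-null (exact p = 0.2 and 0.1). Cox6a2 stood at 58.0, 25.8 and 47.2 CPM in wild-type SAL, 20.2, 41.8 and 36.6 in wild-type ASP, 60.7, 24.4 and 46.4 in labelled-null SAL and 23.1, 25.5 and 39.6 in labelled-null ASP. Wild-type SAL replicate 1, with the most muscle marker RNA (121600 CPM), had the highest ratio, 0.70. The part of muscle content in this ratio was not tested. The muscle form Cox7a1 over Cox7a2 differed by -0.57 between treatments (adjusted p = 0.686, exact permutation test) and by 0.85 between genotypes (exact p = 0.0823, adjusted p = 0.329). Cox8b over Cox8a, again a muscle form over a broad one, differed by -0.01 between treatments (adjusted p = 0.974, exact permutation test) and by 0.14 between genotypes (0.792). Ndufa4l2 over Ndufa4 differed by -0.44 and 0.89 (adjusted p = 0.792 and 0.351, exact permutation test). Cox6b2 over Cox6b1, at the detection limit, differed by -0.07 and 0.39 (adjusted p = 0.974 and 0.792, exact permutation test).

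**Figure D5:**
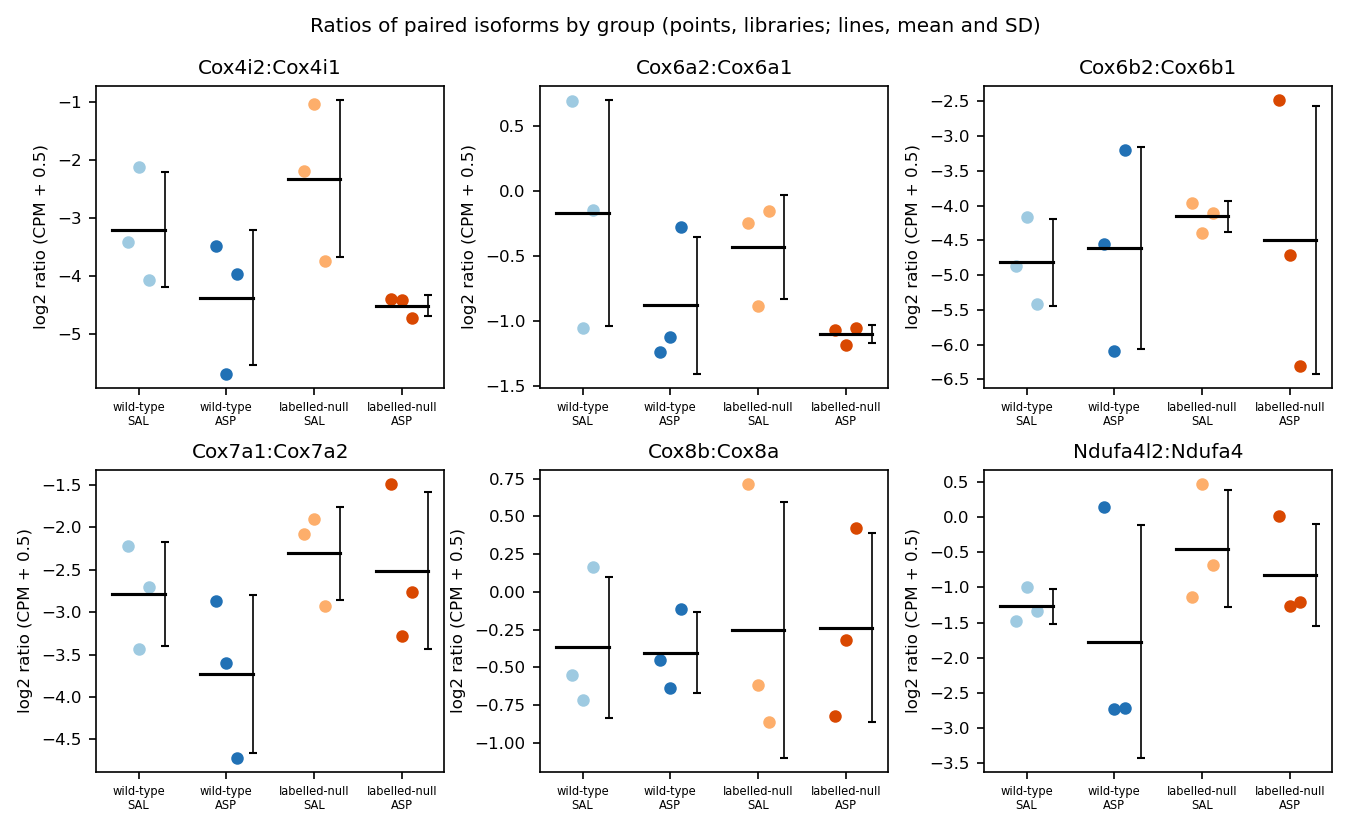
Log2 ratio of CPM + 0.5 of paired isoforms in each library (points) with group mean and SD (lines, n = 3). Cox4i2 to Cox4i1 and Cox6a2 to Cox6a1 lie lower in labelled-null ASP than in any labelled-null SAL library, and the wild-type groups overlap.

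Genes of the same pathways outside the member list, with Cyc1 counted among the electron carriers, gave the following. Of 43 assembly factors, 27 were positive for ASP against SAL in wild type (median 0.15) and 19 in labelled-null (-0.03). Of 13 TCA cycle enzymes, 3 were positive in wild type (-0.28) and 8 in labelled-null (0.09). Of 15 glycolysis genes, 3 and 9 were positive (-0.32 and 0.13), and of 12 fatty acid oxidation genes 4 and 7 (-0.18 and 0.11). Of 12 electron carriers and coenzyme Q genes, 6 and 9 were positive (0.03 and 0.25), and of 14 biogenesis regulators 9 and 5 (0.13 and -0.08). None of these genes passed the test in either comparison (adjusted p at least 0.999 in wild type and 0.989 in labelled-null). Pprc1, a coactivator of mitochondrial biogenesis, had the smallest p of its list in wild type, with a mean of 35 ± 5.65 CPM in SAL and 18.7 ± 8.5 in ASP (SD, n = 3, log2 fold change -0.90, SE 0.38, adjusted p = 0.999). In wild type the members were mostly positive while the TCA cycle and glycolysis lists were mostly negative, and without wild-type ASP replicate 2 all 3 medians were negative (-0.35, -0.33 and -0.43).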

How the data were processed

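Per the labels, total RNA of mouse skin was sequenced in 12 libraries. The deposited table holds raw read counts per Entrez Gene ID, not normalized by the authors. Of its 18 columns, 6 match no sample here and stayed out. Named in the submitters' processing notes are TopHat, CASAVA 1.8, bcl2fastq, DESeq and the build mm10. The sources used here do not name the counting program or strand setting. IDs were matched to symbols in the mouse annotation (23372 of 23469), and the 97 without a symbol, 7.57% to 15.8% of counts, stayed in library sizes. Genes passing filterByExpr (15341) were scaled by TMM (factors 0.647 to 1.28) and tested with edgeR 4.0.16 (quasi-likelihood, robust, R 4.3.3), 1 coefficient per group, with Benjamini-Hochberg adjustment over all genes tested. The common biological coefficient of variation was 0.427. On simulated data for ASP against SAL in wild type (15132 genes), 3.0% of 2-fold and 51.5% of 4-fold changes were called, with 2 false calls. The isoform pseudocount was 0.5 CPM. Transcript lengths are those of APPRIS principal transcripts, and 14363 tested genes had one.

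The members, lists and tests were chosen with earlier results of these data known. Named are the 2 members per complex highest per kilobase, the isoform pairs, the 5 smallest p per direction and comparison, the Sdh genes and the 3 most and least spread, and other members named were chosen after their values were seen. 1 result that this rule names is not reported here. From the other lists, genes were named by smallest p. Alternatives were RLE and upper-quartile scaling, 2 other filters on low counts, DESeq2 1.42.0, limma-voom 3.58.1, only the groups compared, the replicate block, a muscle covariate and leaving out libraries or Mup genes.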

Additional observations from a re-analysis of the deposited data

How the results depend on the processing

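No member was called under any alternative run. DESeq2 called 2 genes for ASP against SAL in wild type, 2 in labelled-null, 6 between genotypes under SAL, 5 under ASP and 1 for the interaction, none of them members. Without wild-type ASP replicate 3 and labelled-null SAL replicate 1 (called the distant libraries below), 1 gene was called in wild type. Leaving out 1 library at a time moved the median of the members between -0.35 and 0.74 in wild type, -0.61 and 0.45 between genotypes under ASP, and -0.53 and 0.50 for the interaction, each extreme of opposite sign coming from wild-type ASP replicate 2. Medians also crossed 0 under limma-voom with quality weights (0.06 between genotypes under ASP, 0.16 for the interaction) and with the muscle covariate (0.18 for the interaction), and in wild type these gave 0.06 and 0.07. With the muscle covariate the median under SAL was -0.31. In labelled-null and under SAL, leaving out libraries gave 0.01 to 0.35 and -0.19 to 0.16. The cause was not tested.

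Of the named members, leaving out wild-type SAL replicate 2 turned Ndufa8 (0.09 in wild type in a range of -3.16 to 0.09, 0.05 between genotypes under SAL in a range of -3.28 to 0.05) and Ndufa12 (-1.31 to 0.23), and leaving out wild-type SAL replicate 3 turned Ndufs7 (-0.82 to 0.01). Ndufc2 turned under SAL without labelled-null SAL replicate 1 (range -0.05 to 1.60), without both distant libraries (-0.05), and in the interaction under limma-voom (0.09). Under ASP, Atp5g1 (-0.08 to 0.36), Cox6b1 (-0.27 to 1.57, and -0.10 without both distant libraries), Ndufc1 (-0.17 to 0.50) and Ndufa4 (-1.37 to 0.09) turned when 1 or 2 libraries were left out.

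Isoform ratios between treatments turned for Cox6b2 with a pseudocount of 0.1 (0.08) and within wild type (0.20), and for Cox8b within labelled-null (0.01). The ratio of Cox4i2 turned between genotypes under ASP (-0.14). Leaving out libraries gave -0.49 to 0.28 for Cox6b2 and -0.16 to 0.20 for Cox8b between treatments. Between genotypes it gave -0.10 to 0.71 for Cox4i2, -0.38 to 0.00 for Cox6a2 and -0.05 to 0.26 for Cox8b. The Cox4i2 and Cox6a2 ratios between treatments stayed below 0 throughout, at -1.95 to -1.34 and -0.85 to -0.50.

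Same-numbered libraries of different groups did not deviate together (correlations -0.19 to 0.13 over 18 pairs, against -0.29 to 0.23 over 36 pairs of different numbers). No pairing by number was thus seen, but deviations from means of 3 libraries cannot exclude it. With a replicate block 0 genes were called and the medians were 0.36, 0.21, -0.03, -0.25 and -0.23. Depth limits Cox4i2, Cox7a1 and Cox6b2, and 3 libraries per group limit all 2-fold changes.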
